A study of Pimephales promelas with 338 samples.

Results

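The 18 libraries described here are the DMSO solvent controls of 6 exposures of fathead minnow larvae, 3 libraries for each exposure. They were chosen as every library whose sample description starts with CON and an exposure code and whose treatment is DMSO, which gave 18 of the 338 libraries of the study. None of the 18 received a test chemical. The study itself exposed whole larvae of Pimephales promelas for 24 h to 12 chemicals, tested in pairs, and read gene expression with TempO-Seq.

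All 18 libraries came from whole larvae held for 24 h in DMSO at no more than 0.34% in lake water, and the labels give no strain and no age beyond the larval stage. Each library pooled the homogenates of up to 5 larvae from a plate, the dead ones not included, so differences between single larvae are averaged and the number pooled in each library is not given. Every group therefore shares the solvent, the medium and the exposure time. By their labels, the exposures differ in the chemicals that stood on the same plates. The labels give no date and no brood for an exposure, so whether the exposures shared these is not known. C1C2 was run with metolachlor OA and 3,4-dichlorophenyl isocyanate, C3C4 with 1(2H)-phthalazinone and gabapentin, and C5C6 with metribuzin-DA and 2-tert-butyl-4-methoxyphenol. C7C8 was run with hydrochlorothiazide and 4-chlorophenyl methyl sulfoxide, C9C10 with cetirizine and fipronil amide, and C11C12 with fexofenadine and cis-nonachlordane. Replicates A, B and C of an exposure are its 3 plates. In C1C2, C3C4, C5C6 and C7C8 the 3 DMSO libraries carry the same position code in their labels (A10, C10, E10 and G10), so exposure and position cannot be told apart there. The labels do not say whether the 3 plates of an exposure held larvae of separate broods, and p-values then measure the spread between these pools, which may be partly technical.

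The fathead minnow is a small freshwater fish used for toxicity testing, and its larvae are small enough to be exposed singly in the wells of a plate. TempO-Seq counts a targeted panel of transcripts in crude lysate: a pair of detector oligonucleotides is ligated where both bind next to each other on an RNA, and the ligated product is amplified and sequenced. A solvent control is the baseline against which a treated larva is read, so a gene that already varies among controls has a baseline that depends on which controls are used.

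Library totals ran from 416956 to 727659 counts, with a median of 628360, over 1832 probes for 1829 gene symbols. The median total was lowest in C11C12, at 445112 counts, and highest in C5C6, at 677065. Between 1703 and 1746 probes had a count in a library, and 10 probes had none in all 18. Levels are counts scaled to a common library total (CPM). A level depends on how well its probe works as well as on the RNA, so levels are compared between libraries and not between genes. In whole-body RNA, fewer cells of a type and less RNA per cell cannot be told apart. By the median absolute log2 difference over probes, 12 of the 18 libraries had their nearest library within their own exposure. The others were C3C4 A and C9C10 C, which were nearest to each other, C5C6 A (nearest to C7C8 A), C7C8 A (to C3C4 A), C7C8 C (to C9C10 C) and C11C12 C (to C5C6 B). Counts of called probes are given without single libraries wherever a library moved them by much.

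A large share of the counts of the baseline larvae fell on a few ribosomal, apolipoprotein and collagen probes. The probe of apoa2, an apolipoprotein of high-density lipoprotein, drew the most, with 90845 ± 13032 CPM (SD, n = 18) and a median of 9.25% of the counts of a library. Of the next 9 probes, 8 were for ribosomal proteins, led by rps27a at 52296 ± 5443 CPM, and the other was for col1a2, a chain of type I collagen, at 22530 ± 2879 CPM. The 35 ribosomal protein probes together took 43.0% to 47.8% of the counts, and the 10 highest probes took 36.1% to 41.4%.

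Markers of liver, pancreas, intestine, nerve, muscle, eye and blood were counted in every library, as whole larvae should hold. The pancreatic protease gene prss59.1 stood at 13115 ± 1983 CPM (SD, n = 18) and the amylase gene amy2a at 4634 ± 1046 CPM. The liver fibrinogen gene fgb had 3268 ± 495 CPM and the intestinal alkaline phosphatase gene alpi.2 had 1322 ± 274 CPM. Nerve, muscle and eye were represented by snap25a, a protein of synaptic vesicle release (1213 ± 148 CPM), desma, the muscle desmin (938 ± 271 CPM), and pde6c, the cone phosphodiesterase (926 ± 106 CPM). Red blood cells were seen through cahz, a carbonic anhydrase, at 428 ± 40.6 CPM, and through the globin gene hbae5, which ranged from 13.7 to 157 CPM. The globin gene hbae3 ranged from 16.8 to 46.8 CPM. The red blood cell marker alas2, for haem synthesis, was near 0, with a median of 0 CPM and at most 3 counts. A few other markers were also at or near 0. The cytokine gene il10 had at most 1 count in a library and il1b at most 13 (in C11C12 B), and olig1, of the oligodendrocyte lineage, had at most 2. No symbol of the yolk and vitellogenin list was found among the probes.

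The DMSO larvae of different exposures did not share a single baseline. In an edgeR quasi-likelihood F-test with a mean for each exposure, 144 of the 1474 probes with enough counts differed among exposures at an adjusted p under 0.05, which is 9.77%. Across these 144, the gap between the highest and the lowest exposure ran from 0.37 to 4.34 on the log2 scale with a median of 0.86, and 48 exceeded 1. Over all tested probes the median gap was 0.55 and 190 exceeded 1, so most gaps of that size were not called. C1C2 held the highest mean for 54 of the 144 and the lowest for 40, C5C6 for 29 and 35, and C11C12 for 25 and 33. C9C10 was at an extreme for the fewest probes, 8 highest and 14 lowest. Without the C1C2 libraries 36 probes differed among the remaining 5 exposures, and without those of C11C12 86 did. Without the B libraries 13 differed, without the C libraries 85, and without C1C2 B alone 95.

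Each exposure was then set against the mean of the other 5, with p-values adjusted over all probes and all 6 comparisons. The 6 comparisons share libraries, so a gene high in one exposure lowers its value in the others. At least 1 comparison called 123 probes (8.34%). C1C2 had the most calls, 62 (4.21%), with 41 probes higher (2.78%) and 21 lower (1.42%). C11C12 had 36 (2.44%), with 23 higher (1.56%) and 13 lower (0.882%), and C5C6 had 33 (2.24%), with 18 higher (1.22%) and 15 lower (1.02%). C7C8 had 15 higher (1.02%) and 0 lower by edgeR, against 39 lower at an unadjusted p under 0.05, and 1 lower by DESeq2. C3C4 had 7 (0.475%), with 3 higher (0.204%) and 4 lower (0.271%), and C9C10 had 5 (0.339%), with 2 higher (0.136%) and 3 lower (0.204%).

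**Figure D1:**
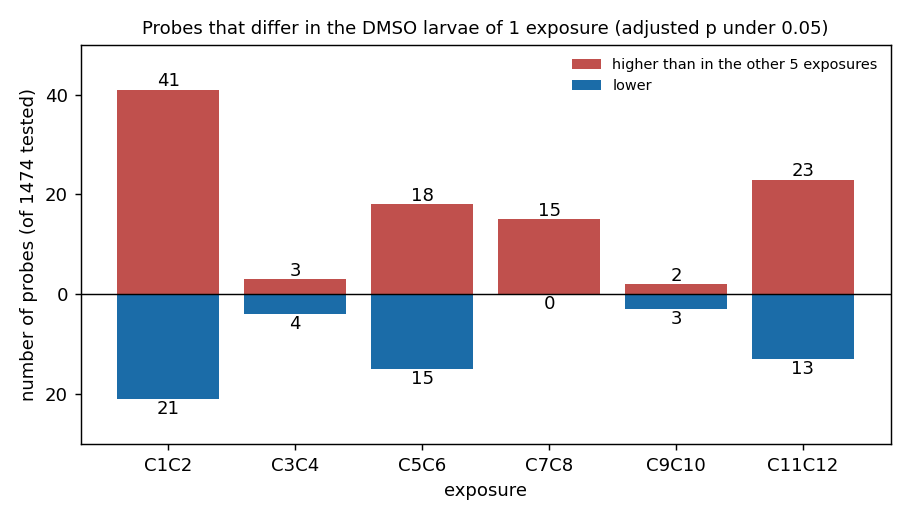
Number of probes called higher (red, above 0) or lower (blue, below 0) in the DMSO larvae of an exposure than in the mean of the other 5, by exposure, of 1474 probes tested. C1C2 has 41 higher and 21 lower, while C3C4 and C9C10 have 7 and 5 in all.

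In the C7C8 larvae, several chaperone genes of the endoplasmic reticulum and a few immune genes were higher than in the other DMSO larvae. The endoplasmic reticulum folds secreted proteins; hspa5 encodes its main chaperone BiP, pdia6 a disulfide isomerase, and canx and calr the lectin chaperones calnexin and calreticulin. The C7C8 libraries A, B and C held 2930, 3321 and 2859 CPM of hspa5, and the other 15 libraries ran from 1050 through a median of 1402 to 2372 CPM. All 3 libraries lay above every other one, and the next highest were C11C12 A and B. The difference was 1.07 on the log2 scale (SE 0.12, adjusted p = 1.91e-05).

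The other called folding genes moved less than hspa5. C7C8 held 396, 439 and 461 CPM of pdia6, against 217 to 396 CPM elsewhere with a median of 295, a log2 difference of 0.55 (SE 0.09, adjusted p = 0.00165). The lowest C7C8 library was just above the highest of the others for pdia6. For canx the values were 506, 589 and 745 CPM against 345 to 540 CPM, and for calr 910, 823 and 911 CPM against 615 to 855 CPM. Both rose, by 0.42 (adjusted p = 0.0369) and 0.32 (adjusted p = 0.0468) on the log2 scale, with overlapping ranges. In the F-test among exposures canx was not called. The calr call there (adjusted p = 0.0274) was lost in 5 omissions of 1 library, C7C8 A among them (adjusted p up to 0.0755). Of the 17 tested genes of endoplasmic reticulum folding, 4 were called higher in C7C8, against 1.02% of all probes, and 0 lower, with a median log2 difference of 0.20, against 0.01 over all tested probes. The genes p4hb, hyou1, xbp1 and creld2 of the same list did not pass.

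Signalling and immune genes were also higher in C7C8. The level of rgs2, a brake on G-protein signalling, was 113, 110 and 157 CPM there, against 30.9 to 130 CPM elsewhere with a median of 50.1. Every C7C8 library exceeded all the others except C11C12 A and B, and the difference was 1.23 (SE 0.17, adjusted p = 0.000187). The interleukin receptor chain gene il13ra1 rose by 0.94 (SE 0.19, adjusted p = 0.00911), from 24.5 to 62.4 CPM elsewhere to 54.1, 88.8 and 73.0 CPM. The proteasome activator gene psme1, which interferon induces in mammals, had 110, 119 and 99.3 CPM against 42.8 to 97.5 CPM, a difference of 0.78 (SE 0.17, adjusted p = 0.0149) with no overlap. The calls of il13ra1 and psme1 were lost without C7C8 B (adjusted p up to 0.0979 and 0.0814), and that of psme1 also without C7C8 A.

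Some of the 15 probes called higher in C7C8 had few counts. Of these il19l and ifi35, like canx above, were picked out after their values were seen. The cytokine gene il19l had 12, 11 and 24 counts in C7C8 and 0 to 11 counts in the other 15 libraries, with a median of 2. The acute-phase gene saa, serum amyloid A, had 18, 25 and 32 counts there, against 0 to 29 with a median of 5, and the highest of the others was C11C12 B. The interferon-induced gene ifi35 had 27, 30 and 29 counts against 6 to 20. The ranges of il19l and saa overlapped and those of ifi35 did not, and no fold is given for counts this low. Of 18 tested genes for immune cells and inflammation, saa was the 1 called in C7C8, against 1.02% of all probes, with a list median of 0.07. In the F-test among exposures the saa call (adjusted p = 0.0238) was lost with DESeq2 and with thinned libraries. It was also lost in 4 omissions of 1 library, C7C8 B and C7C8 C among them (adjusted p up to 0.0638). Leaving out C7C8 B reduced the count of called probes from 15 to 6, while hspa5 and rgs2 were called without any single library.

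**Figure D2:**
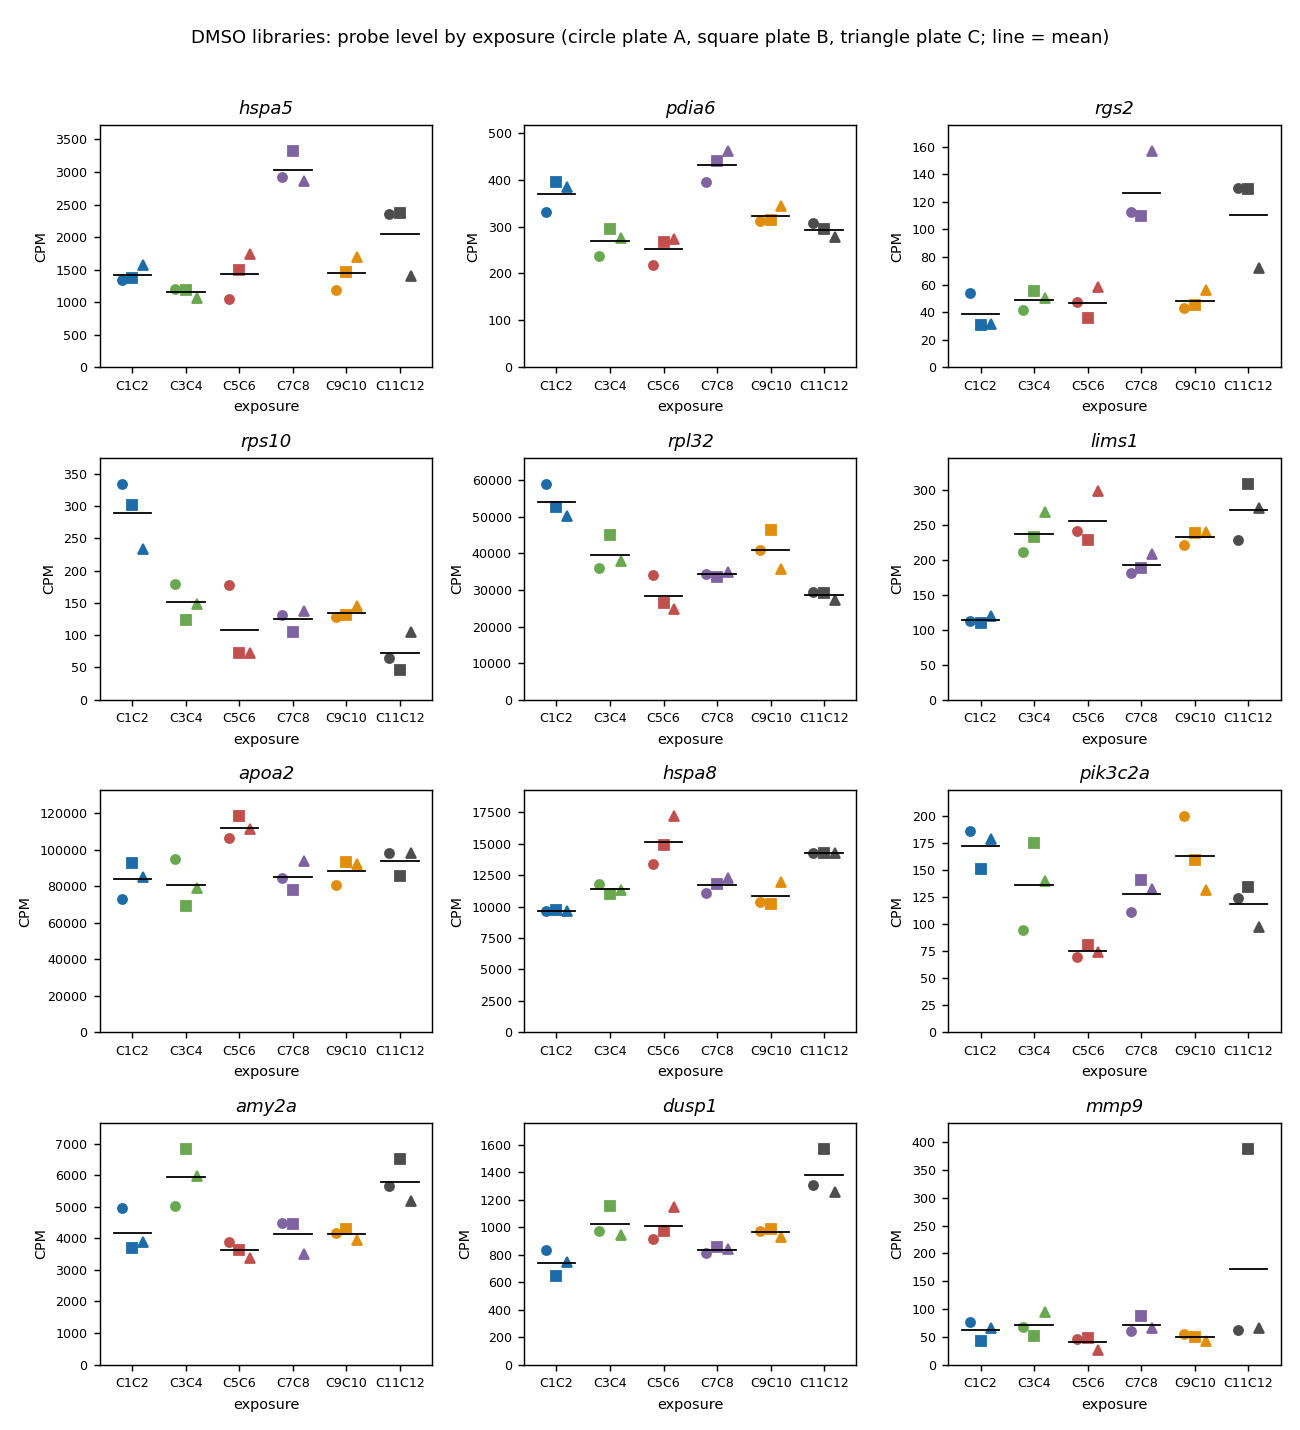
Level of 12 genes in each of the 18 DMSO libraries, in CPM on linear axes from 0, by exposure; circles, squares and triangles are plates A, B and C and the line is the mean of 3 libraries. The C7C8 values of hspa5 (2859 to 3321 CPM) and the C1C2 values of lims1 (109 to 120 CPM) lie clear of all other libraries, whereas the C11C12 mean of mmp9 rests on plate B.

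In the C1C2 larvae, 6 ribosomal protein genes and single genes of basement membrane, proteasome and mitosis were higher, and lims1, snx13 and xrcc5 were lower. The ribosomal probe rps10 held 335, 301 and 234 CPM in C1C2, against 45.6 to 179.8 CPM elsewhere with a median of 128. No other library reached the lowest C1C2 value, and the log2 difference was 1.34 (SE 0.19, adjusted p = 0.000234). In the quality control set described last, rps10 also differed among library plates (adjusted p = 0.0156). At the far higher level of rpl32, C1C2 held 59049, 52624 and 50320 CPM against 24660 to 46354 CPM, a difference of 0.70 (SE 0.09, adjusted p = 6.89e-05) with no overlap.

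These probes did not stand for all ribosomal protein genes. In C1C2, 6 of 35 were called higher (rps10, rpl6, rpl32, rpsa, rpl19 and rpl28) and 0 lower, against 2.78% and 1.42% of all probes. Yet the list median was -0.03 and 16 of the 35 lay above 0. The laminin receptor gene rpsa, also a component of the small ribosomal subunit, had 10028, 8946 and 10251 CPM against 6129 to 8080 CPM elsewhere, a difference of 0.45 (SE 0.08, adjusted p = 0.00226). The share of all counts in ribosomal protein probes was 46.3% ± 0.578 in C1C2 (SD, n = 3) and 43.6% ± 0.808 in C9C10, the highest and the lowest means of the 6 exposures. Ribosomal protein and collagen genes have close copies, so a probe may read more than its named gene. The translation elongation factor gene eef1g rose by 0.38 (adjusted p = 0.0149). In the F-test among exposures its call was lost without C1C2 A, B or C and without C5C6 B (adjusted p up to 0.108).

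**Figure D3:**
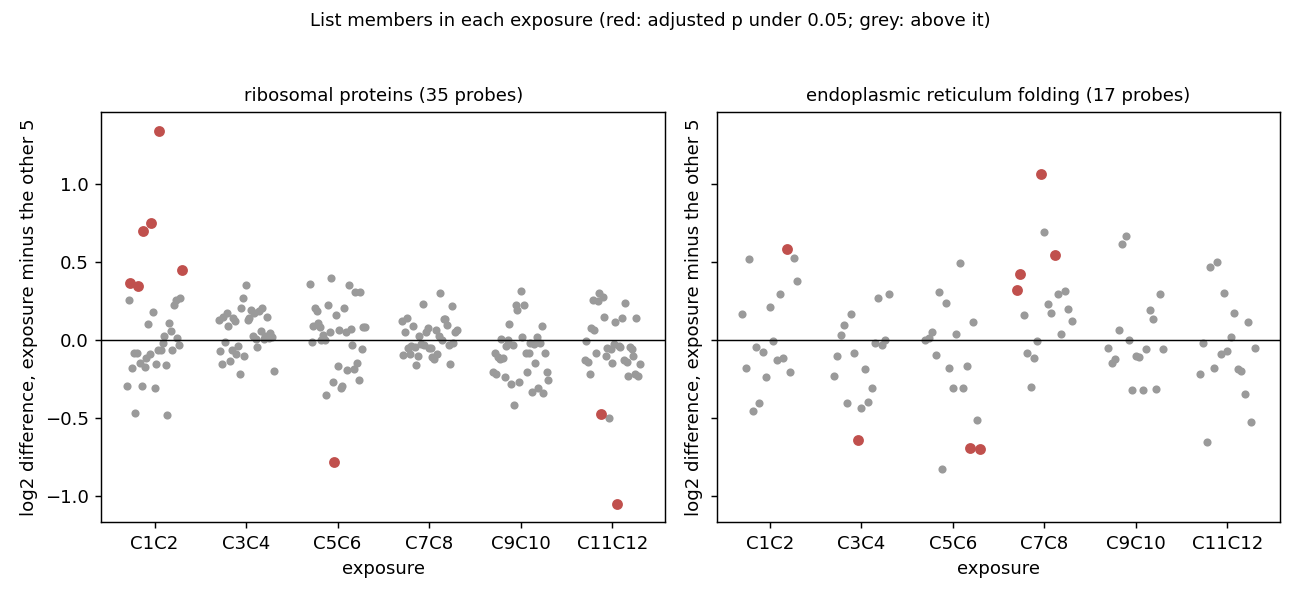
Log2 difference between an exposure and the mean of the other 5 for each tested probe of 2 gene lists, ribosomal proteins (35 probes, left) and endoplasmic reticulum folding (17 probes, right); red points have an adjusted p under 0.05. In C1C2, 6 ribosomal probes are red above 0 while the rest scatter around 0, and in C7C8 4 folding probes are red with hspa5 highest.

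Other genes high in C1C2 were col4a6, psmd3 and cdk1. The collagen IV chain gene col4a6, a basement membrane component, had 129, 161 and 107 CPM against 18.8 to 77.6 CPM elsewhere, a log2 difference of 1.36 (SE 0.20, adjusted p = 0.000572). The proteasome lid gene psmd3 had 521, 464 and 357 CPM against 116 to 361 CPM, where the lowest C1C2 library fell below the highest of the others, and differed by 1.09 (SE 0.20, adjusted p = 0.00464). The mitotic kinase gene cdk1 had 152, 144 and 137 CPM against 35.9 to 114 CPM, a difference of 0.90 (SE 0.17, adjusted p = 0.00695) without overlap. In the F-test among exposures the cdk1 call was lost without C1C2 A, B or C (adjusted p up to 0.0825). Of 62 tested genes of cell cycle and replication, cdk1 was the 1 called higher in C1C2, a smaller share than the 2.78% of all probes. In that list 45 of the 62 lay above 0 and the list median was 0.20. The list members nuf2 and kif15 went the other way, with their lowest mean in C1C2. Both were called in the F-test among exposures (adjusted p = 0.0187 and 0.0209), kif15 at a mean of 9.94 counts. Each lost its call without some single libraries (adjusted p up to 0.115 and 0.0617). The lipogenic regulator gene mid1ip1l rose by 0.93 (adjusted p = 0.00835), with 175, 198 and 111 CPM against 31.5 to 127 CPM. That call was lost without C1C2 A or without C1C2 B, with an adjusted p of up to 0.0975.

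Lower in C1C2 were lims1, snx13 and xrcc5. The gene lims1 encodes PINCH, an adaptor of integrin adhesions, and had 113, 109 and 120 CPM in C1C2 against 181 to 309 CPM with a median of 233. All 15 other libraries were above the C1C2 values, whose SD was 5.24 CPM, and the difference was -1.02 (SE 0.12, adjusted p = 1.97e-05). The sorting nexin gene snx13 had 46.5, 45.4 and 34.4 CPM against 67.7 to 98.8 CPM, a difference of -0.94 (SE 0.17, adjusted p = 0.00464). The DNA end-binding gene xrcc5, which encodes Ku80, fell by 0.96 on the log2 scale (SE 0.23, adjusted p = 0.0270), at 42.9, 28.9 and 50.8 CPM against 53.1 to 161 CPM. In none of these did a C1C2 library reach the others, but xrcc5 was not called without C1C2 A, without C1C2 B or with thinned libraries (adjusted p up to 0.143 without a library).

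The haem oxygenase gene hmox2a had 25.0, 12.4 and 9.62 CPM in C1C2, which is as few as 6 counts in a library, against 19.0 to 110 CPM elsewhere, so that the ranges overlapped. It fell by 1.69 (SE 0.39, adjusted p = 0.0216) and lost its call without C1C2 B or without C1C2 C. The constitutive chaperone gene hspa8 was also low, at 9676, 9701 and 9668 CPM against 10231 to 17194 CPM, a difference of -0.34 (SE 0.08, adjusted p = 0.0252). The hypoxia and stress gene ndrg1a fell by 0.63 (adjusted p = 0.0155) and the phosphatase gene dusp1, an early response gene, by 0.44 (adjusted p = 0.0105). The count of called probes in C1C2 was 30 without C1C2 A and 24 without C1C2 B, in place of 62.

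In the C5C6 larvae, the leading apolipoprotein gene and a few genes of mitosis and respiration were higher, and pik3c2a and dio3b were lower. The top probe, apoa2, had 106560, 118537 and 111455 CPM in C5C6 against 68965 to 98434 CPM elsewhere with a median of 85556. All 3 libraries were above every other, and the difference was 0.46 (SE 0.10, adjusted p = 0.00995). In the F-test among exposures the apoa2 call (adjusted p = 0.0280) did not hold in every omission of 1 library. It was lost without C5C6 A, B or C and without C3C4 C (adjusted p up to 0.162). With library totals in place of TMM scaling (trimmed mean of M-values), the median of all tested probes in C5C6 moved from -0.01 to -0.09 and the split of calls from 18 higher and 15 lower to 6 higher and 30 lower.

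The mitotic genes nuf2 and ube2c rose in C5C6, unevenly over its plates. The kinetochore gene nuf2 had 93.0, 187 and 170 CPM against 62.6 to 121 CPM elsewhere, a difference of 0.73 (SE 0.15, adjusted p = 0.0124). The ubiquitin-conjugating gene ube2c, which acts in mitotic exit, had 267, 405 and 448 CPM against 212 to 324 CPM, a difference of 0.58 (SE 0.12, adjusted p = 0.00948). In both, library A lay inside the range of the other exposures and B and C lay above it. Of 62 tested cell cycle genes these 2 were called higher in C5C6, against 1.22% of all probes, with 43 above 0 and a median of 0.17. Both calls were lost without C5C6 B and without C5C6 C (adjusted p up to 0.148 for nuf2 and 0.0985 for ube2c). The same pattern held for xrcc5, at 69.4, 135 and 161 CPM, which rose by 0.94 (adjusted p = 0.00695) and lost its call without either of the same libraries.

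The complex I gene ndufv2 and the chaperone gene hspa8 were also high in C5C6. The complex I subunit gene ndufv2 had 390, 535 and 451 CPM against 200 to 546 CPM, a difference of 0.62 (SE 0.15, adjusted p = 0.0247) with overlap, since the C1C2 libraries were about as high. Of the 4 tested respiratory chain genes, ndufv2 and ndufa1 were called higher, against 1.22% of all probes, and all 4 lay above 0. The ndufv2 call was lost with library totals (adjusted p = 0.0660), without C5C6 B and without C5C6 C (adjusted p up to 0.181). The chaperone gene hspa8 rose by 0.49 (SE 0.08, adjusted p = 0.000787), with 13384, 14903 and 17194 CPM against 9668 to 14298 CPM.

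Among the genes lower in C5C6 were pik3c2a, dio3b, gclc and xbp1. The lipid kinase gene pik3c2a had 69.4, 80.6 and 73.9 CPM against 94.8 to 200 CPM, with no overlap and a difference of -0.83 (SE 0.16, adjusted p = 0.00695). The deiodinase gene dio3b, whose enzyme inactivates thyroid hormone, had 171, 116 and 139 CPM against 181 to 353 CPM, a difference of -0.71 (SE 0.14, adjusted p = 0.00835). The gene gclc, for the rate-limiting subunit of glutathione synthesis, had 127, 134 and 130 CPM against 159 to 283 CPM and fell by 0.62 (adjusted p = 0.0160). The unfolded-protein transcription factor gene xbp1 had 82.7, 75.8 and 87.0 CPM against 78.4 to 196 CPM, and it and the endoplasmic reticulum gene selenos fell by 0.70 (adjusted p = 0.0330) and 0.69 (adjusted p = 0.0179). The ribosomal gene rpl6 fell by 0.78 (adjusted p = 0.0227), at 78.3, 111 and 100 CPM against 102 to 250 CPM. With dio3b and gclc the groups did not overlap, and with xbp1 and rpl6 they did. Several of these calls were lost when 1 C5C6 library was left out: dio3b without B or C, rpl6 without A or C, and xbp1 without any 1 of the 3. Over all omissions of 1 library the differences stayed at -0.89 to -0.60 for dio3b, -0.91 to -0.67 for rpl6 and -0.75 to -0.64 for xbp1. The count of called probes in C5C6 was 55 without C5C6 A, 8 without C5C6 B and 10 without C5C6 C, in place of 33, and 54 without C3C4 A or without C9C10 C.

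**Figure D4:**
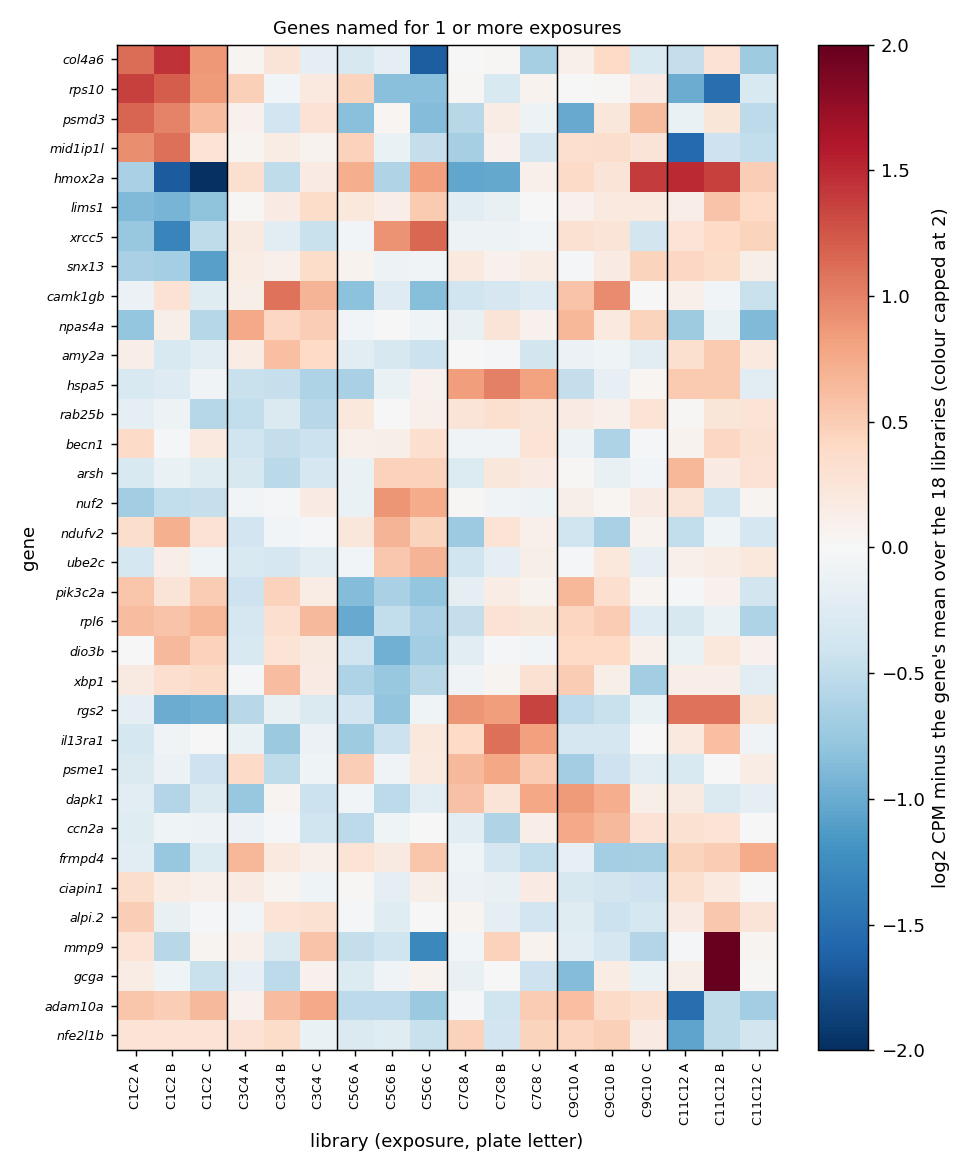
Log2 CPM of the genes named for 1 or more exposures, minus the mean of the gene over the 18 libraries, with exposures separated by black lines; colours are capped at 2. The C1C2 block holds the highest values of col4a6, rps10 and psmd3 and the lowest of lims1 and snx13, and the highest mmp9 and gcga values are a single library, C11C12 B.

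In the C11C12 larvae, dusp1, sesn1 and tat were among the genes called higher. Of 19 immediate-early genes, the list of dusp1, 2 were called higher and 7 lay above 0, with a median of -0.10. Of 18 apoptosis and p53 genes, the list of sesn1, 1 was called higher and 9 lay above 0, with a median of -0.01. For tat, 12 of 16 glucocorticoid and clock genes lay above 0 (median 0.07, 1 called higher). So did 5 of 7 liver genes (median 0.03, 1 called higher). Of 20 genes of oxidative stress 1 was called higher, with a median of -0.01. Over all probes 1.56% were called higher. The phosphatase gene dusp1 had 1308, 1571 and 1254 CPM in C11C12 against 641 to 1153 CPM elsewhere with a median of 930. The groups did not overlap and the difference was 0.55 (SE 0.08, adjusted p = 0.000664). The p53 target gene sesn1, a sestrin, had 643, 758 and 641 CPM against 301 to 597 CPM, a difference of 0.62 (SE 0.10, adjusted p = 0.00176). The hormone-responsive liver enzyme gene tat, tyrosine aminotransferase, had 317, 259 and 225 CPM against 104 to 232 CPM, with overlap. It rose by 0.67 (SE 0.16, adjusted p = 0.0253). In the F-test among exposures the tat call was lost in 6 of 18 omissions of 1 library, C11C12 A and B among them (adjusted p up to 0.152). It was also lost without the C1C2 libraries. The extracellular superoxide dismutase gene sod3b, named after its values were seen, had 44.9, 55.2 and 44.0 CPM against 8.07 to 28.9 CPM, a difference of 1.41 (SE 0.26, adjusted p = 0.00519).

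The signalling gene rgs2 and the haem oxygenase gene hmox2a were high on plates A and B but less so on C. The level of rgs2 was 130, 130 and 72.3 CPM in C11C12, a difference of 0.91 (SE 0.18, adjusted p = 0.00849), and that of hmox2a was 110, 101 and 55.0 CPM, a difference of 1.22 (SE 0.28, adjusted p = 0.0224). Both were lost without C11C12 A or without C11C12 B, with adjusted p up to 0.0856 and 0.152. C11C12 was also the exposure with the lowest depth.

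The largest fitted rises in C11C12 came from a single library. The matrix metalloprotease gene mmp9, a gene of neutrophils and wound repair, had 62.9, 389 and 66.0 CPM in C11C12 and 26.1 to 94.1 CPM elsewhere. The glucagon gene gcga had 40.4, 216 and 37.7 CPM against 20.4 to 41.5 CPM. Only C11C12 B was high for either gene. The fitted differences of 1.46 (adjusted p = 0.0147) and 1.42 (adjusted p = 0.0160) fell to 0.15 (adjusted p = 0.852) and 0.20 (adjusted p = 0.806) when C11C12 B was left out. Among the 1108 probes with a mean of at least 20 counts, these were the only ones for which any library of the 18 stood at least 2-fold above all 17 others, whereas 8 probes had a library at least 2-fold below all others. The same library held the highest saa value outside C7C8 (29 counts) and the highest il1b value (13 counts). Of 18 tested immune genes 14 lay above 0 in C11C12, with a median of 0.38. The 1 called was mmp9, against 1.56% of all probes called higher. Summed over the 24 immune probes on the panel, the share of counts in C11C12 was 0.158% ± 0.0565 (SD, n = 3). The highest single library of the 18 held 0.223%. Means of the other exposures ran from 0.102% in C5C6 to 0.130% in C7C8, with SDs of 0.00173 to 0.00917.

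Among the genes lower in C11C12 were adam10a, rps10 and mid1ip1l. The sheddase gene adam10a had 17.97, 36.0 and 31.4 CPM against 30.4 to 86.6 CPM and fell by 1.07 (SE 0.23, adjusted p = 0.0147). The ribosomal probe rps10 had 65.2, 45.6 and 105 CPM, a difference of -1.05 (SE 0.25, adjusted p = 0.0253), and mid1ip1l had 31.5, 69.6 and 66.0 CPM, a difference of -0.94 (SE 0.23, adjusted p = 0.0339). Without C11C12 A none of these 3 was called, and rps10 and mid1ip1l were also lost without C11C12 B. The transcription factor gene nfe2l1b, which controls proteasome genes in mammals, fell by 0.78 (adjusted p = 0.0483) and lost its call in 14 of 18 omissions of 1 library and with DESeq2 (adjusted p = 0.0609). The count of called probes was 13 without C11C12 A, 15 without C11C12 B and 21 without C1C2 B, in place of 36, and the split became 28 higher and 6 lower with library totals.

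The C3C4 larvae differed in few genes. The gene amy2a, for amylase, had 5010, 6843 and 5984 CPM against 3377 to 6502 CPM elsewhere, a difference of 0.45 (SE 0.10, adjusted p = 0.0153), with C11C12 close behind at 5673, 6502 and 5180 CPM. The neuronal activity gene npas4a had 93.4, 73.5 and 77.4 CPM against 29.9 to 87.6 CPM (0.65, SE 0.17, adjusted p = 0.0483), and the kinase gene camk1gb had 113, 221 and 167 CPM against 58.0 to 200 CPM (0.77, SE 0.17, adjusted p = 0.0156). Lower in C3C4 were hspa5, at 1203, 1190 and 1066 CPM against 1050 to 3321 CPM (-0.64, SE 0.14, adjusted p = 0.0147), and becn1, an autophagy gene, at 111, 106 and 109 CPM against 95.7 to 197 CPM (-0.54, SE 0.13, adjusted p = 0.0305). The vesicle transport gene rab25b fell by 0.54 (adjusted p = 0.0439) and the sulfatase gene arsh by 0.49 (adjusted p = 0.0483). The calls of npas4a, rab25b and arsh were lost in 13, 13 and 14 of the 18 omissions of 1 library, and arsh was the one whose ranges did not overlap. The count of called probes was 13 without C3C4 A, 3 without C3C4 B and 0 without C3C4 C, in place of 7. It was 11 without C5C6 A and 4 without any of C5C6 B, C9C10 A, C9C10 B or C11C12 C.

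The C9C10 larvae had the fewest called probes, 5 in all. At an unadjusted p under 0.05 there were 172, against 144 in C3C4 and 112 in C7C8. The matricellular growth factor gene ccn2a, a target of mechanical and TGF-beta signalling, had 485, 448 and 348 CPM against 187 to 353 CPM elsewhere, a difference of 0.59 (SE 0.12, adjusted p = 0.00849). The death-associated kinase gene dapk1 had 196, 181 and 118 CPM against 64.1 to 186 CPM and rose by 0.60 (SE 0.16, adjusted p = 0.0457), a call lost in 11 of the 18 omissions of 1 library. It was also called in C7C8, with a difference of 0.66. The intestinal phosphatase gene alpi.2 had 1096, 959 and 1017 CPM against 992 to 1885 CPM, a difference of -0.51 (SE 0.12, adjusted p = 0.0244). The iron-sulfur assembly gene ciapin1 fell by 0.53 (adjusted p = 0.0227), with 114, 110 and 107 CPM against 126 to 182 CPM, and the synaptic scaffold gene frmpd4 by 0.70 (adjusted p = 0.0330). With library totals alpi.2, ciapin1 and frmpd4 missed the threshold (adjusted p = 0.0697, 0.0714 and 0.0604), and the split was 8 higher and 0 lower. The count of 5 became 30 without C9C10 C, 1 without C9C10 A or C9C10 B and 3 without C1C2 A, and 9 with DESeq2.

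Counted by tissue and pathway, calls among exposures ranged from all members of a short list to none. Members and lists were chosen with earlier results of these data known, so no list share here or above tests a tissue or pathway. All 3 pancreatic enzyme genes differed among exposures (amy2a, prss59.1 and prss1), against 9.77% of all tested probes. The prss1 call was lost with DESeq2 and without the C1C2 libraries. Summed over these probes, pancreatic enzymes took 2.20% ± 0.155 of the counts in C3C4 (SD, n = 3) and 1.46% ± 0.140 in C5C6. Differences among exposures were called in 5 of 17 folding genes (29.4%), 5 of 19 immediate-early genes (26.3%), 9 of 35 ribosomal genes (25.7%), 3 of 11 cytosolic heat shock genes (27.3%) and 4 of 20 proteasome genes. The immediate-early genes were rgs2, dusp1, ccn2a, ccn1 and npas4a, and the heat shock genes were hspa8, hspb1 and hspd1. Called shares close to the background were seen for collagens, cartilage and bone (3 of 27, 11.1%), cell cycle (7 of 62, 11.3%), glycolysis and glycogen (2 of 20) and apoptosis and p53 (2 of 18, 11.1%).

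The fixed lists of neuron, eye, glia, muscle and blood genes held no called gene, although npas4a, frmpd4 and the dopamine receptor gene drd1b, which are on none of these lists, were called among exposures. Differences were called by edgeR in 0 of 21 neuron and synapse genes, 0 of 10 genes of retina, lens and photoreceptor, 0 of 4 glial genes, 0 of 3 muscle genes and 0 of 3 blood genes, which does not show that their levels were equal. Neuronal probes took 0.602% to 0.772% of the counts over the 18 libraries. The 7 tested reference genes also had 0 calls, although gapdh, an enzyme of glycolysis, ranged from 409 to 1140.4 CPM (adjusted p = 0.0570). The circadian gene per3 did differ among exposures, with 850, 873 and 879 CPM in C3C4 and 550, 605 and 678 CPM in C7C8 (adjusted p = 0.0340), and also among library plates of the quality control set (adjusted p = 0.0443).

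The steadiest and the most variable baselines can be named among the 680 probes with a mean of at least 100 CPM. The smallest SD of log2 CPM over the 18 libraries belonged to ywhaba and ywhaz, adaptor proteins of the 14-3-3 family, at 0.07 and 0.08, then pgrmc1, vdac1 and gpx4b at 0.09 each. For ywhaba the libraries ran from 4343 to 5102 CPM. The largest belonged to rps10 (0.74), psmd3 (0.61), the mitochondrial chaperonin gene hspd1 (0.55), the adiponectin receptor gene adipor1b (0.54) and the dynein light chain gene dynll1 (0.53). For dynll1 the spread lay within exposures, with 191, 600 and 226 CPM in C3C4, and it was not called among exposures (adjusted p = 0.206).

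Libraries of an exposure lay somewhat closer to each other than libraries of different exposures, with overlapping ranges. The median absolute log2 difference over probes was 0.243 for the 18 pairs within an exposure (0.198 to 0.302) and 0.292 for the 135 pairs between exposures (0.207 to 0.383). The most distant exposures were C1C2 and C11C12, with a median of 0.344 over 9 pairs, and the nearest were C3C4 and C9C10, at 0.241.

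**Figure D5:**
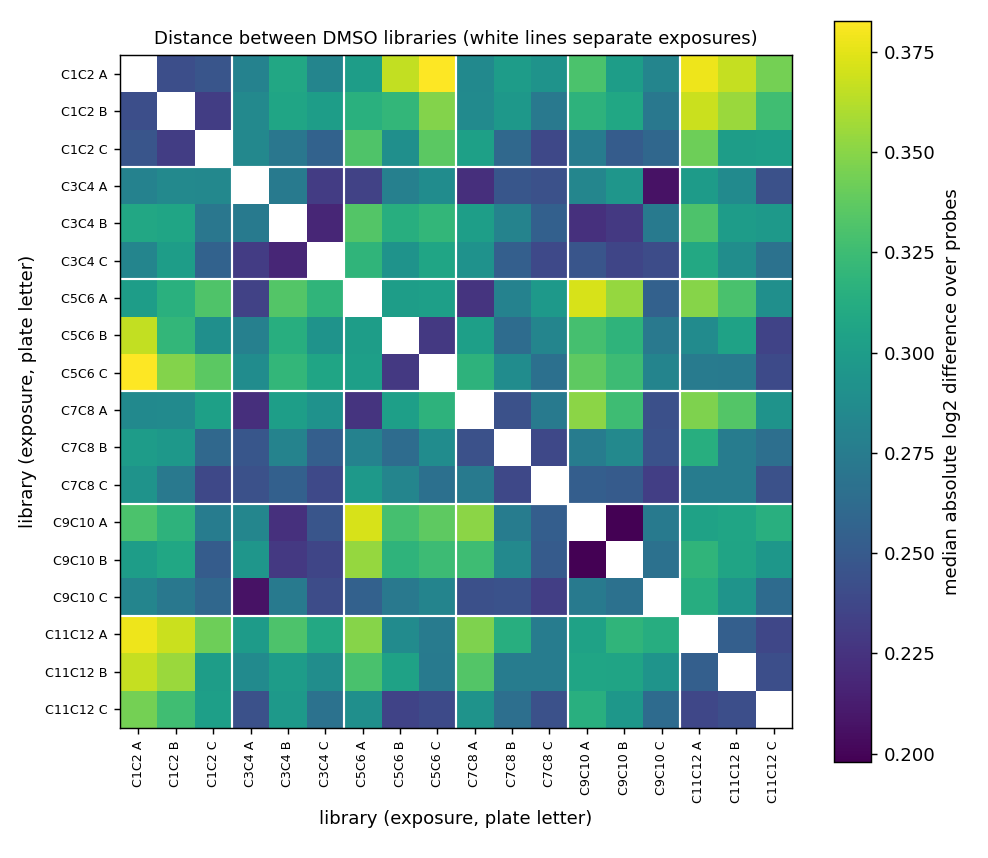
Median absolute log2 difference over probes between each pair of the 18 DMSO libraries (dark is close; white lines separate the exposures; the diagonal is blank). The darkest squares are C9C10 A with C9C10 B (0.198) and C3C4 A with C9C10 C (0.207), and the lightest is C1C2 A with C5C6 C (0.383).

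Plate letters and library preparation were examined beside the exposures. With exposure as a term, 0 of 1419 probes differed among letters A, B and C by edgeR, with 90 at an unadjusted p under 0.05 and 1 called by DESeq2. In C1C2 to C7C8, however, the position codes of all libraries of a letter do not repeat (72 of 72 distinct for A, 71 of 71 for B and for C), whereas most codes of C9C10 and C11C12 repeat them for A and B. When only those 4 exposures were fitted, a choice made after seeing the data, 46 of 1417 probes (3.25%) differed among letters. Among the same 4 exposures 89 probes differed without a term for letter and 207 with it. The labels do not say what a letter shares between exposures, so a common plate and other sources cannot be told apart. In the separate quality control set of 8 DMSO libraries, made as pairs on 4 library plates, 37 of 1376 probes (2.69%) differed among plates. Of those 37, 9 (24.3%), rps10 and hspb1 included, also differed among exposures, against 9.77% of all probes tested there. These 9 were 6.25% of the 144 that differed among exposures. The quality control libraries held 1522 to 1806 CPM of hspa5 and 205 to 299 CPM of lims1, below every C7C8 library and above every C1C2 library for the respective gene. For rpl32 they held 29291 to 32879 CPM, again below every C1C2 library, and for rps10 64.5 to 160 CPM. For dio3b, low in C5C6, they held 86.1 to 153 CPM, below every exposure library outside C5C6 (181 to 353 CPM). Their pik3c2a level, 53.9 to 117 CPM, spanned the C5C6 values and overlapped the other exposures. For apoa2, high in C5C6, they held 94217 to 106628 CPM, overlapping the other exposures and just reaching C5C6. The labels do not give the origin of the larvae in this set or the number pooled. Its npas4a level was 19.0 to 29.3 CPM, below all 18 exposure libraries (29.9 to 93.4 CPM), so its baseline was not the same for every gene. The labels do not name the library plate of an exposure library, so the part of library plates in the exposure differences was not tested.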

How the data were processed

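Whole-larva TempO-Seq was deposited as tables of raw counts per probe and library; the values were whole numbers, and per the file headers each column is a library. Reads were demultiplexed with bcl2fastq, per the submitters' processing notes; for the aligner, the probe reference and the genome build, no name was found among the sources read. Copies of a library in several tables held the same counts. Every column was matched to a sample, and 0 columns were left out. SDs over 3 libraries cover the spread between pools, and depth was 416956 to 727659 counts. No replicate pair of an exposure agreed within sampling noise (chi-square per degree of freedom 2.67 to 13.1 over 18 pairs), so none was merged.

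Probes were kept with filterByExpr at a minimum count of 10, scaled by TMM and tested with edgeR 4.0.16 quasi-likelihood F-tests (R 4.3.3, limma 3.58.1) with a mean per exposure. Benjamini-Hochberg adjustment ran over all tested probes, and for single exposures over probes and the 6 comparisons together, at a threshold of 0.05. Plate letter was tested with exposure as a term, and library plate in 8 quality control DMSO libraries. CPM values use library totals; SDs of log2 CPM use a prior count of 2. The scripts were tested on simulated data.

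Named genes were the 10 highest probes, up to 4 rises and 4 falls per exposure among called probes with a mean of at least 20 counts, up to 4 called members per list of 29 gene lists, and the 5 steadiest and 5 most variable probes of at least 100 CPM; genes named beyond this rule (canx, ccn1, creld2, hyou1, p4hb, gapdh, ifi35, il19l, ndufa1, rpl19, rpl28, sod3b and the tissue markers) were chosen after their values were seen. From lists matched by the start of a symbol, 6 symbols were left out. Members and lists were chosen with earlier results of these data known. Alternatives were DESeq2 1.42.0, library totals, no filter, thinning to the lowest total, plate letter as a block, leaving out each library, letter or exposure, and, added after seeing the data, fits of C1C2 to C7C8 alone with and without the letter.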

Additional observations from a re-analysis of the deposited data

Results flagged for a closer look

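In the 8 quality control DMSO libraries, 1 library stood apart from the others for the ribosomal gene rpl32. Its level was 32879 CPM, while the next highest was 30917 CPM and the lowest 29291 CPM. The gap to the nearest library was large for the range of the group. Of 10 quantities examined in these 8 libraries (a library total and 9 genes) 1 was picked out, and chance picks out about 1 in 20. The 3 libraries of each exposure are too few for this check.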

How the results depend on the processing

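None of the 90 named results reversed its direction under the alternatives run. Splits of calls did turn with library totals. In C5C6 the split went from 18 higher and 15 lower to 6 and 30, and in C9C10 from 2 and 3 to 8 and 0. The count among exposures (144) was 158 with DESeq2, of which 132 were shared, 163 with library totals, 150 with no filter and 133 with thinned libraries. It was 36 without C1C2, 86 without C11C12, and 13 to 205 when 1 library or 1 letter was left out. For single exposures the counts with 1 library or 1 letter left out ran from 7 to 90 in C1C2, 0 to 13 in C3C4, 0 to 55 in C5C6, 5 to 21 in C7C8, 0 to 30 in C9C10 and 2 to 46 in C11C12. In C9C10 DESeq2 called 9 and library totals 8. For plate letters DESeq2, library totals and the fit without C3C4 each called 1, and leaving out 1 library gave 0 to 1. Among library plates of the quality control set DESeq2 called 13, no filter 80, and leaving out 1 library gave 9 to 61. The causes of these shifts were not tested, beyond the fewer libraries in a reduced fit.

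With plate letter as a replicate block, 159 probes differed among exposures, and single exposures had 71 (C1C2), 5 (C3C4), 40 (C5C6), 20 (C7C8), 5 (C9C10) and 40 (C11C12). Over 45 same-letter pairs from different exposures, deviations correlated from -0.22 to 0.27, with 12 over 0.1, against 8 of 90 different-letter pairs. The medians were -0.01 and 0.01, yet 13 of 18 libraries correlated best with their own letter. These values do not settle pairing by letter over all 6 exposures. Within C1C2 to C7C8, libraries of a letter were more alike. The same-letter median was 0.11 (9 of 18 over 0.1) and the different-letter median -0.05 (0 of 36). There, 10 of 12 libraries correlated best with their own letter. The main fit has no term for letter, so it does not take this likeness into account. In fits of those 4 exposures, added after seeing the data, 46 probes differed among letters, and 89 among exposures without the replicate block against 207 with it.

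Of 90 named results, 9 kept their call under every alternative and 66 under DESeq2, library totals, no filter, thinning and the block. With 3 pools per exposure, many gaps of a size that was called in other probes did not pass, and folds of genes with few counts are imprecise.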
